A study of Homo sapiens with 4 samples.

Results

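Receptor tyrosine kinases are cell-surface proteins that bind a growth factor or another ligand outside the cell and carry a tyrosine kinase inside it. A set of 53 receptor tyrosine kinase genes was looked up by Ensembl gene identifier in the lists of mRNAs that the authors called differentially expressed after sonodynamic therapy (SDT). The set was chosen by gene name and not by any measured value, although earlier results of these data were known. It was divided into 11 named families (EGFR, INSR, PDGFR, VEGFR, FGFR, NTRK, MET, TAM, TIE, EPH and DDR) and a remainder called others, which made 12 groups. All 53 genes were matched to an Ensembl identifier, out of 22148 annotated genes in the background of the authors' Gene Ontology (GO) tables.

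The 4 groups came from a pair of established human cell lines, HepG2 and Huh7, with 1 library in each group. The paper describes both as hepatocellular carcinoma lines. Untreated cells formed group A (HepG2) and group C (Huh7), and treated cells formed group B (HepG2) and group D (Huh7). In groups B and D, targeted nanobubbles filled with the gas C3F8 carried hematoporphyrin monomethyl ether (HMME), a sensitizer that ultrasound activates, and lonidamine (LND), an inhibitor of tumor energy metabolism, and the cells were exposed to low-frequency ultrasound. No group with nanobubbles alone, LND alone or ultrasound alone was analysed here, so the parts of the treatment cannot be told apart. A gene was "listed" when it stood under any term of the table of group B vs. A (HepG2) or group D vs. C (Huh7), which means that the authors called it at an adjusted p-value under 0.05. The tables hold no expression level, no read count and no direction, so a listed receptor may have been higher or lower after treatment. A receptor that was not listed may have been unchanged, too low to be tested or not expressed, and these cannot be told apart. With 1 library per group, no listing has a replicate check, and no test was run on the counts given here.

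Ligand binding brings these receptors together in pairs, the kinases phosphorylate each other on tyrosine, and the phosphorylated tails recruit adaptor proteins that feed the Ras-MAPK, PI3K-Akt and phospholipase C pathways. Adaptors and scaffolds pass the signal on, whereas Sprouty, SPRED, SOCS and CBL proteins and tyrosine phosphatases dampen it or send the receptor to be degraded. In the liver, EGFR, MET, the insulin receptor and FGFR4 are the best known members, acting in growth, regeneration, glucose control and bile acid synthesis.

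The kinase domain is the feature that the members share, and its catalytic centre is recognised by a His-Arg-Asp motif in the catalytic loop and an Asp-Phe-Gly motif that binds magnesium. The stretches below are coding DNA (GENCODE release 29, GRCh38) from the first motif to the second for 5 receptors listed in both cell lines, shown because they let the shared centre of these receptors be read directly. Capitals mark the codons of the His-Arg-Asp motif at the start and of the Asp-Phe-Gly motif at the end, and each stretch runs 5′ to 3′ along the coding strand.
PDGFRB: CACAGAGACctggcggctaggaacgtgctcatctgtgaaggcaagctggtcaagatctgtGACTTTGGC
KIT: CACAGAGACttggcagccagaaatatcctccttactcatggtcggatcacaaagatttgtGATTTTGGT
MERTK: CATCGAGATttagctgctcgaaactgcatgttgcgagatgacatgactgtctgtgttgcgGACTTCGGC
EPHA7: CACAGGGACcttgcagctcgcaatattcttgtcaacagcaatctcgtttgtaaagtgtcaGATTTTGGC
EPHA8: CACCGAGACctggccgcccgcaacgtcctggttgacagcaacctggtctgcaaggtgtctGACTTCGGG
Each stretch was 69 bases or 23 codons long. Over the 10 pairs of stretches, identity at the DNA level ranged from 43.5% to 71%, with the highest value for EPHA7 and EPHA8, which belong to the same family. The fixed motifs were spelled with different codons, since the first codon was CAT in MERTK and CAC in the other 4. ERBB3, which was also listed in both cell lines, has no such stretch: its protein lacks the pair of motifs and is known as a kinase-impaired receptor that signals through its partners.

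In HepG2 cells, 20 of the 53 receptors were listed after treatment, which was 37.7%, against 21.6% of all annotated genes (4783 of 22148). In Huh7 cells, 17 of the 53 receptors were listed, which was 32.1%, against 19.7% of all annotated genes (4369 of 22148). In each cell line the share of listed receptors was therefore above the share of all genes, but genes not expressed in these cells may be part of the background, and a share among expressed genes could not be computed. A total of 7 receptors was listed in both cell lines, 13 in HepG2 cells alone, 10 in Huh7 cells alone and 23 in neither, so 30 of the 53 were listed at least once. The background share for listing in both cell lines was 10.3% (2281 of 22148). The 7 shared receptors made up 35% of the listed receptors of HepG2 cells and 41.2% of those of Huh7 cells, whereas the genes shared by both cell lines made up 47.7% and 52.2% of the respective lists of all genes. The difference between these shares was not tested.

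**Figure D1:**
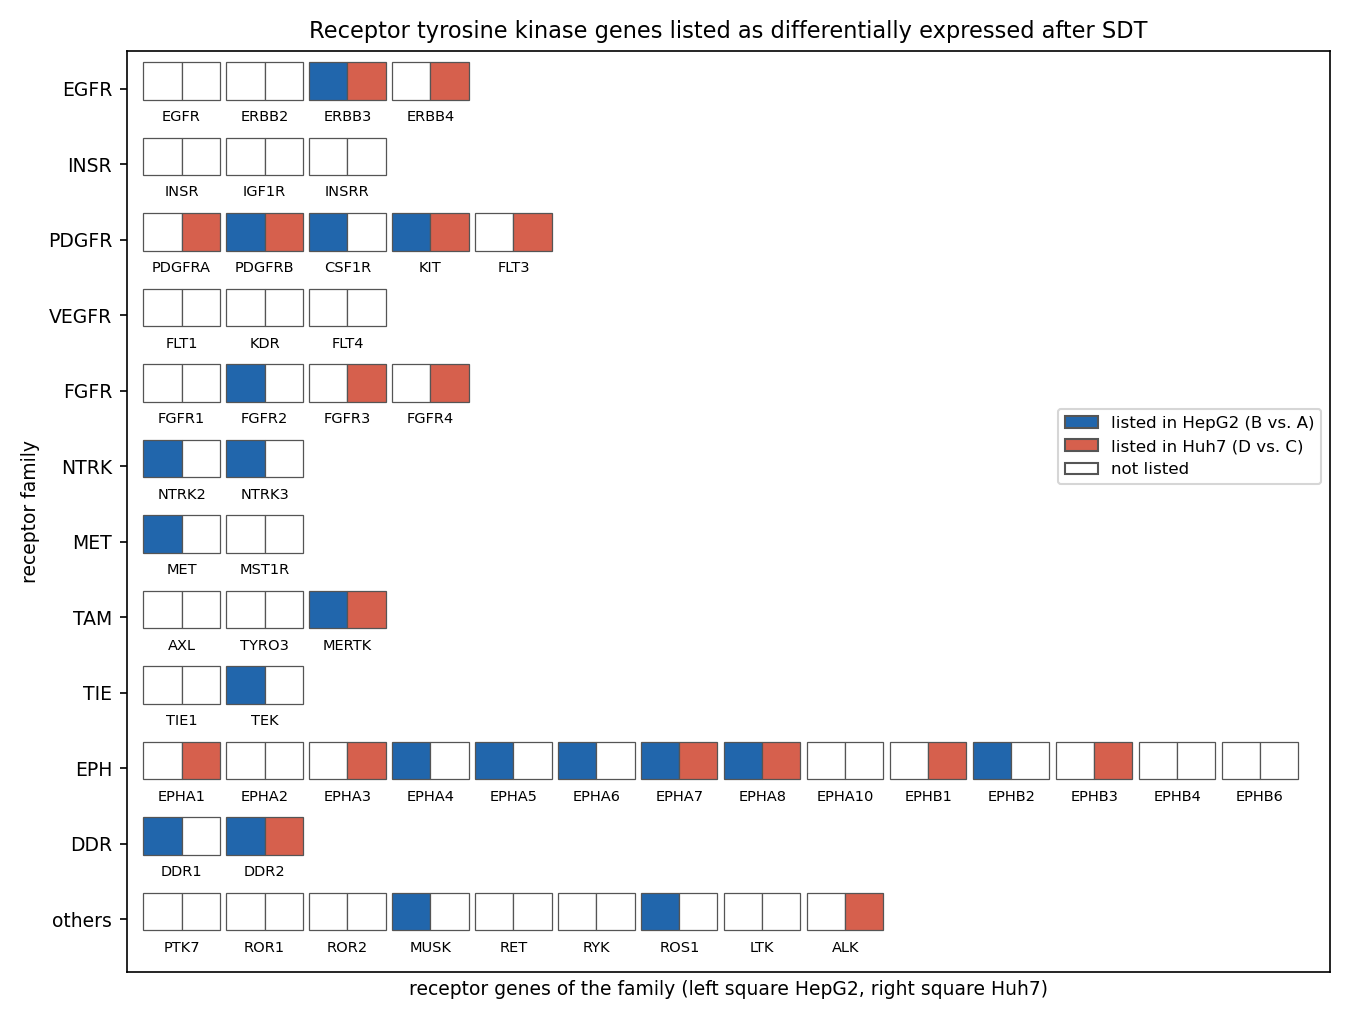
Each pair of squares is 1 of the 53 receptor genes, in rows by family; the left square is filled when the gene was listed in HepG2 cells (group B vs. A) and the right square when it was listed in Huh7 cells (group D vs. C). Both squares are filled for 7 genes and neither for 23, and the rows of the INSR and VEGFR families are empty.

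The 7 receptors listed in both cell lines came from 5 families, namely EGFR, PDGFR, TAM, EPH and DDR. ERBB3 (ENSG00000065361, chr12:56076799-56103505, plus strand) is the neuregulin receptor that pairs with ERBB2. PDGFRB (ENSG00000113721, chr5:150113837-150155872, minus strand) binds platelet-derived growth factor B and D and is best known in pericytes and stellate cells. KIT (ENSG00000157404, chr4:54657918-54740715, plus strand) is the receptor of stem cell factor. MERTK (ENSG00000153208, chr2:111898479-112029561, plus strand) drives the uptake of apoptotic cells through the bridging ligands GAS6 and protein S. EPHA7 (ENSG00000135333, chr6:93240020-93419547, minus strand) and EPHA8 (ENSG00000070886, chr1:22563564-22603594, plus strand) bind ephrins on neighbouring cells. DDR2 (ENSG00000162733, chr1:162631373-162787400, plus strand) is a receptor of fibrillar collagen and not of a soluble growth factor. Coordinates are those of GENCODE release 29 on GRCh38, as the build used by the authors is not given in the sources used here.

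In the PDGFR family no member was left out, as was also the case in the small NTRK and DDR families. Its 5 genes, which encode the receptors of platelet-derived growth factors, colony-stimulating factor 1, stem cell factor and FLT3 ligand, were each listed in at least 1 cell line. In HepG2 cells 3 of the 5 were listed (PDGFRB, KIT and CSF1R), and in Huh7 cells 4 of the 5 (PDGFRA, PDGFRB, KIT and FLT3). These were 60% and 80% of a small family, beside 21.6% and 19.7% of all annotated genes. PDGFRB and KIT were shared. CSF1R, the receptor of macrophage growth factor, was listed in HepG2 cells, and PDGFRA and FLT3, a receptor of early blood progenitors, in Huh7 cells. Pairs of these genes are chromosomal neighbours. On the minus strand of chromosome 5, PDGFRB ends 465 bases before CSF1R begins, so reads that run across this gap could be assigned to either gene. PDGFRA and KIT lie 360 kb apart on chromosome 4, and KDR, which lies 338 kb beyond KIT, was not listed.

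The EPH family was the largest, with 14 genes. Eph receptors bind membrane-bound ephrins and guide axons, vessels and the borders between cell layers. In HepG2 cells 6 were listed (EPHA4, EPHA5, EPHA6, EPHA7, EPHA8 and EPHB2), and in Huh7 cells 6 were also listed (EPHA1, EPHA3, EPHA7, EPHA8, EPHB1 and EPHB3). Each count was 42.9% of the family, beside 21.6% (HepG2) and 19.7% (Huh7) of all annotated genes. The equal counts covered partly different genes, since 2 were shared, 4 were listed in HepG2 cells alone, 4 in Huh7 cells alone and 4 in neither (EPHA2, EPHA10, EPHB4 and EPHB6). Of all listed genes, 47.7% (HepG2) and 52.2% (Huh7) were shared, so partial overlap was not particular to this family. EPHA2 and EPHB4, which are known for their expression in epithelial and venous cells, were thus among those not listed. EPHA8 and EPHB2 lie 107 kb apart on chromosome 1.

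In the EGFR family, ERBB3 was listed in both cell lines and ERBB4, a second neuregulin receptor, in Huh7 cells alone. EGFR and ERBB2, the members most often targeted by drugs, were not listed in either cell line. In the FGFR family no receptor was shared: FGFR2 was listed in HepG2 cells, and FGFR3 and FGFR4 in Huh7 cells. FGFR4, which pairs with the coreceptor beta-Klotho to receive the bile acid signal FGF19, was listed together with KLB and FGF19 in Huh7 cells, and none of these 3 genes was listed in HepG2 cells. FGFR1 was not listed. The EGFR and FGFR families each had listed shares of 25% (HepG2) and 50% (Huh7) of 4 genes, beside 21.6% and 19.7% of all annotated genes. The TAM family had 1 listed gene, MERTK, while AXL and TYRO3, which share its ligands, were not listed. Both collagen receptors of the DDR family were listed in HepG2 cells, and DDR2 alone in Huh7 cells.

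Several small families were listed in HepG2 cells alone. Both genes of the NTRK family, NTRK2 (the receptor of brain-derived neurotrophic factor) and NTRK3 (the receptor of neurotrophin 3), were listed there and neither in Huh7 cells. MET, the receptor of hepatocyte growth factor, was listed in HepG2 cells, whereas its relative MST1R was not listed in either line. TEK, the receptor of angiopoietins on endothelial cells, was listed in HepG2 cells, and TIE1 was not listed. Among the 9 genes outside the named families, MUSK, which organizes the neuromuscular junction, and ROS1 were listed in HepG2 cells, and ALK in Huh7 cells. PTK7, ROR1, ROR2 and RYK, which take part in Wnt signaling, as well as RET and LTK were not listed. Over the 12 groups, 10 had a listed gene in HepG2 cells against 7 in Huh7 cells.

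No gene of the INSR or VEGFR families was listed in either cell line. These 6 genes were INSR, IGF1R and INSRR, which receive insulin and insulin-like growth factors or, for INSRR, sense alkaline pH, and FLT1, KDR and FLT4, the receptors of vascular endothelial growth factors. Other genes of the same pathways were listed, at shares to be read beside the 21.6% (HepG2) and 19.7% (Huh7) of all annotated genes. In the GO term insulin receptor signaling pathway, 38 of 140 background genes were listed in HepG2 cells (27.1%) against 31 in Huh7 cells (22.1%). In the term insulin-like growth factor receptor signaling pathway, 14 of 37 were listed in HepG2 cells (37.8%) against 13 in Huh7 cells (35.1%). In the term vascular endothelial growth factor receptor signaling pathway, 25 of 92 genes were listed in HepG2 cells (27.2%) against 21 in Huh7 cells (22.8%). In Huh7 cells the insulin receptor and vascular endothelial growth factor terms thus lay near the share of all genes.

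The cell lines could not be checked against the levels of their markers, since the tables hold none. As to listing, 3 of 9 hepatocyte markers were listed in HepG2 cells (ALB, AFP and HNF4A) against 7 of 9 in Huh7 cells, which were the same 3 and APOA1, APOB, TTR and FGB. Markers of cell types in which several receptors are best known were also listed. Of 7 endothelial markers, 4 were listed in each cell line and were the same 4 (PECAM1, VWF, CDH5 and CLDN5). Of 7 blood cell markers, 5 were listed in HepG2 cells against 4 in Huh7 cells, with PTPRC, CD14, CD68 and LYZ in both. Of 7 stromal markers 2 were listed in each cell line with none shared, and of 7 neuronal markers 3 were listed in HepG2 cells against 1 in Huh7 cells. These counts rest on few genes and are to be read beside the 21.6% (HepG2) and 19.7% (Huh7) of all annotated genes. Among the receptors, TEK and CSF1R were listed in HepG2 cells alone, FLT3 in Huh7 cells alone, and KIT and PDGFRB in both. FLT1, KDR, FLT4 and TIE1 were listed in neither, although the same endothelial markers were listed in both cell lines. PDGFRB was listed in both, although no stromal marker was shared. A link between markers and receptors was not tested.

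The other genes of the pathway were counted by role. Of 72 ligands, 29 were listed in HepG2 cells (40.3%) against 30 in Huh7 cells (41.7%), and 13 were listed in both. The 13 were HBEGF and BTC, which bind EGFR and ERBB4, PDGFD and FLT3LG, VEGFA and VEGFC, FGF7, FGF10, FGF18 and FGF21, BDNF, the TAM ligand PROS1, and the ephrin EFNA2. Of 16 coreceptors, which present ligands or hold receptors together, 7 were listed in each cell line (43.8%), with the GDNF coreceptor GFRA1, the neurotrophin receptor NGFR and the syndecan SDC2 in both. Of 39 adaptors and proximal effectors, 14 were listed in HepG2 cells (35.9%) against 6 in Huh7 cells (15.4%), and 5 of them were shared. These 5 were GRB10 and GRB14, which restrain the insulin receptor, the scaffold GAB2, and the exchange factors VAV1 and VAV3. The central adaptors GRB2, SHC1, SOS1 and GAB1, the phosphatase PTPN11 and the phospholipase PLCG1 were not listed in either cell line. Of 22 negative regulators, 7 were listed in HepG2 cells (31.8%) against 5 in Huh7 cells (22.7%), with SPRED3, SOCS1 and SOCS3 in both. Ligands and coreceptors were thus listed at shares above 40% in both cell lines, while adaptors were the one role whose share in Huh7 cells lay below the 19.7% of all genes. The difference between cell lines was not tested.

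**Figure D2:**
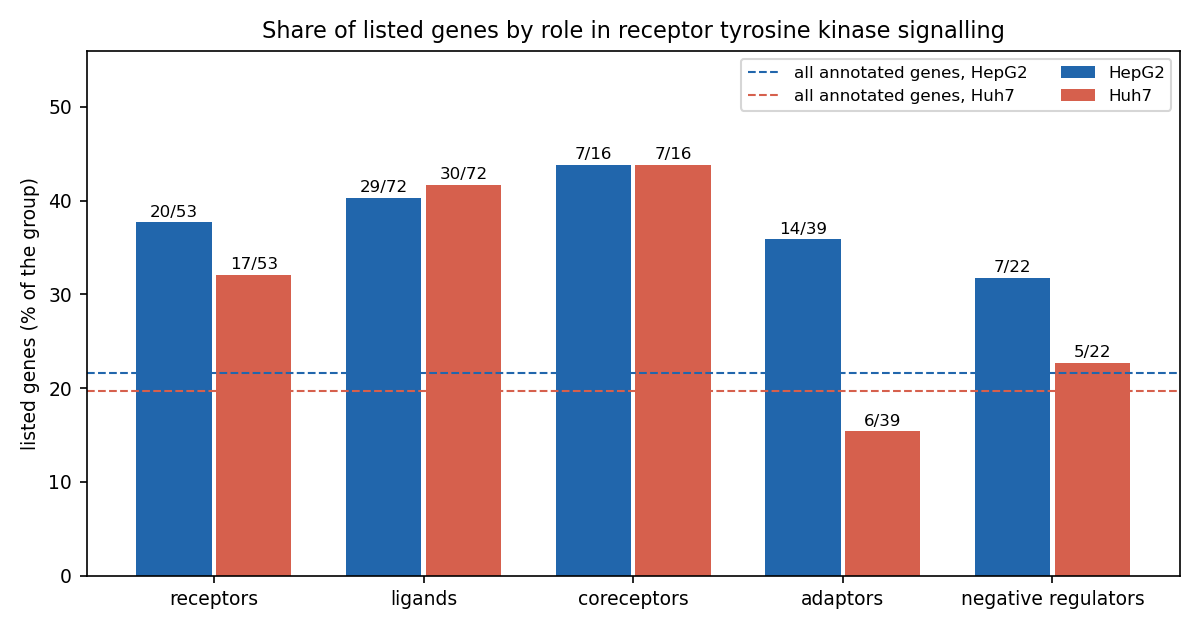
Bars give the percent of genes listed in HepG2 and Huh7 cells for each role, with the counts above the bars, and dashed lines give the share of all annotated genes (21.6% in HepG2 and 19.7% in Huh7 cells). Receptors, ligands and coreceptors lie above both lines in both cell lines, and adaptors do so in HepG2 cells (35.9%) but not in Huh7 cells (15.4%).

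Ligands were set beside the receptors of their family, a pairing that was made after the lists had been seen. Of the 9 groups with both a ligand list and a listed receptor in HepG2 cells, 8 also had a listed ligand there, and in Huh7 cells 6 of 6 did. The mixed group others is counted, though its ligands were not matched to single receptors. It held GDNF, WNT5A and ALKAL1 beside MUSK and ROS1 in HepG2 cells, and NRTN, ARTN and PSPN beside ALK in Huh7 cells. Groups without a listed receptor held listed ligands too: INSR and VEGFR in HepG2 cells, VEGFR and NTRK in Huh7 cells. INSR, MET and TIE held none in Huh7 cells. Of all ligands 40.3% (HepG2) and 41.7% (Huh7) were listed, so these counts do not show a pairing. The PDGFR family had 3 listed receptors and 2 of 8 listed ligands in HepG2 cells, and 4 receptors and 5 ligands in Huh7 cells. The EPH family had 6 listed receptors in each cell line, with 3 of 8 ephrins listed in HepG2 cells against 2 of 8 in Huh7 cells. The VEGFR family had no listed receptor, yet VEGFA and VEGFC were listed in both cell lines, and VEGFD and PGF in Huh7 cells, which made 2 and 4 of its 5 ligands. The FGFR family had 1 listed receptor and 10 of 18 listed ligands in HepG2 cells, against 2 receptors and 7 ligands in Huh7 cells, and 4 of these ligands were shared. The EGFR family had 4 of 11 ligands listed in HepG2 cells, among them NRG1, a ligand of ERBB3, and 7 of 11 in Huh7 cells, among them TGFA, AREG, NRG2 and NRG3. MET was listed in HepG2 cells with neither of the 2 ligands of its family, HGF and MST1. The NTRK family was listed in HepG2 cells with BDNF and NTF4, and BDNF was also listed in Huh7 cells, where neither NTRK2 nor NTRK3 was. TEK was listed in HepG2 cells together with its ligand ANGPT1. MERTK was listed in both cell lines together with PROS1, and GAS6 was not listed.

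**Figure D3:**
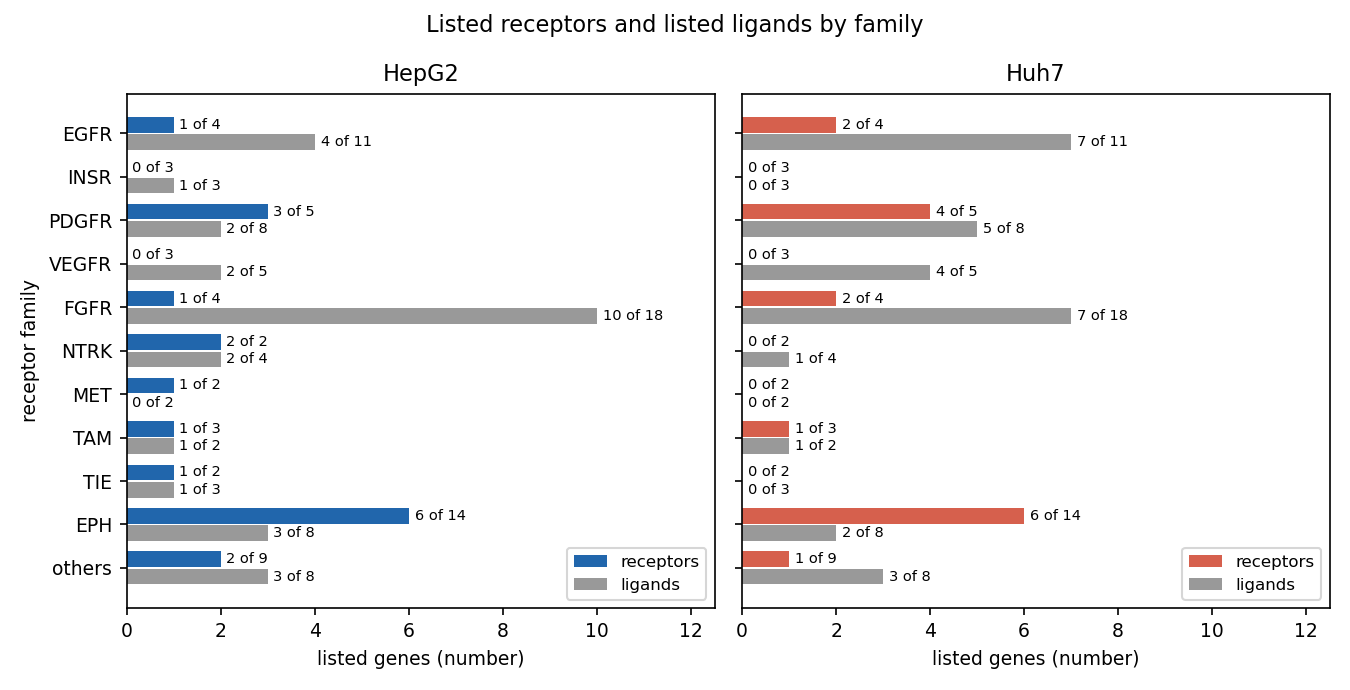
For each family, the upper bar gives the number of listed receptors and the grey bar the number of listed ligands, in HepG2 cells on the left and Huh7 cells on the right, with the size of each set beside the bar. The VEGFR family has ligand bars (2 and 4 of 5) without a receptor bar, and the MET family has a receptor bar in HepG2 cells without a ligand bar.

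The GO term transmembrane receptor protein tyrosine kinase activity held 72 background genes. In HepG2 cells 23 of them were listed (31.9%), of which 20 were members of the set, and in Huh7 cells 22 were listed (30.6%), of which 17 were members. The broader term transmembrane receptor protein tyrosine kinase signaling pathway held 722 background genes, of which 204 were listed in HepG2 cells (28.3%) against 182 in Huh7 cells (25.2%), and 102 of these were listed in both. Some further terms were looked up after the lists had been seen, to place the receptors beside other surface proteins and kinases. Under receptor activity, 19.3% and 19.4% of 1960 genes were listed in HepG2 and Huh7 cells, and under G-protein coupled receptor activity 14.4% and 14.2% of 1017. Under protein serine/threonine kinase activity, 23.9% and 19.8% of 490 genes were listed. Under integral to plasma membrane, 29.5% and 28.9% of 1806 genes were listed. Shares near those of receptor tyrosine kinase activity were thus found for plasma membrane proteins in general, and lower shares for receptors of all kinds. The term receptor tyrosine kinase binding, which gathers partners of the receptors, had 19 of 64 genes listed in HepG2 cells (29.7%) against 9 of 64 in Huh7 cells (14.1%). Growth factor activity went the other way, with 54 of 167 genes in HepG2 cells (32.3%) against 67 of 167 in Huh7 cells (40.1%).

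In the KEGG pathway tables, 15 of the 20 receptors listed in HepG2 cells and 15 of the 17 listed in Huh7 cells were assigned to a pathway. MERTK, DDR1, DDR2, MUSK and ROS1 were listed but stood in no KEGG pathway. MET belonged to 17 pathways, PDGFRA to 16 and PDGFRB to 15, the highest numbers among listed receptors, while each listed Eph receptor belonged to Axon guidance alone. Of the 18 KEGG pathways looked up, that one held the most listed receptors in HepG2 cells and shared the highest number with Endocytosis in Huh7 cells. There were 7 in HepG2 cells (the 6 Eph receptors and MET) against 6 in Huh7 cells, all of them Eph receptors, and EPHA7 and EPHA8 were the 2 that both cell lines shared. The Ras, Rap1 and PI3K-Akt pathways held the same 6 receptors in HepG2 cells (CSF1R, FGFR2, KIT, MET, PDGFRB and TEK) and the same 5 in Huh7 cells (FGFR3, FGFR4, KIT, PDGFRA and PDGFRB). Receptor genes were thus a small part of the listed genes of these pathways, being 6 of 115 in PI3K-Akt signaling in HepG2 cells against 5 of 101 in Huh7 cells. The share of listed genes in PI3K-Akt signaling was 33.1% in HepG2 and 29.1% in Huh7 cells. It was 29.8% and 30.3% in Ras, 30.8% and 31.8% in Rap1, and 31.5% and 30% in MAPK signaling. In Axon guidance it was 28.3% and 30.7%. These shares lay above the 21.6% and 19.7% of all annotated genes, a difference that was not tested. Endocytosis, through which receptors are removed from the surface, held 6 listed receptors in each cell line, and ERBB3 and KIT were shared. Its share of listed genes was 22.5% in HepG2 and 20.2% in Huh7 cells, close to that of all annotated genes. The Insulin and VEGF signaling pathways held no listed receptor, and 22.7% and 23% of their genes were listed in HepG2 cells against 17.7% and 19.7% in Huh7 cells.

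**Figure D4:**
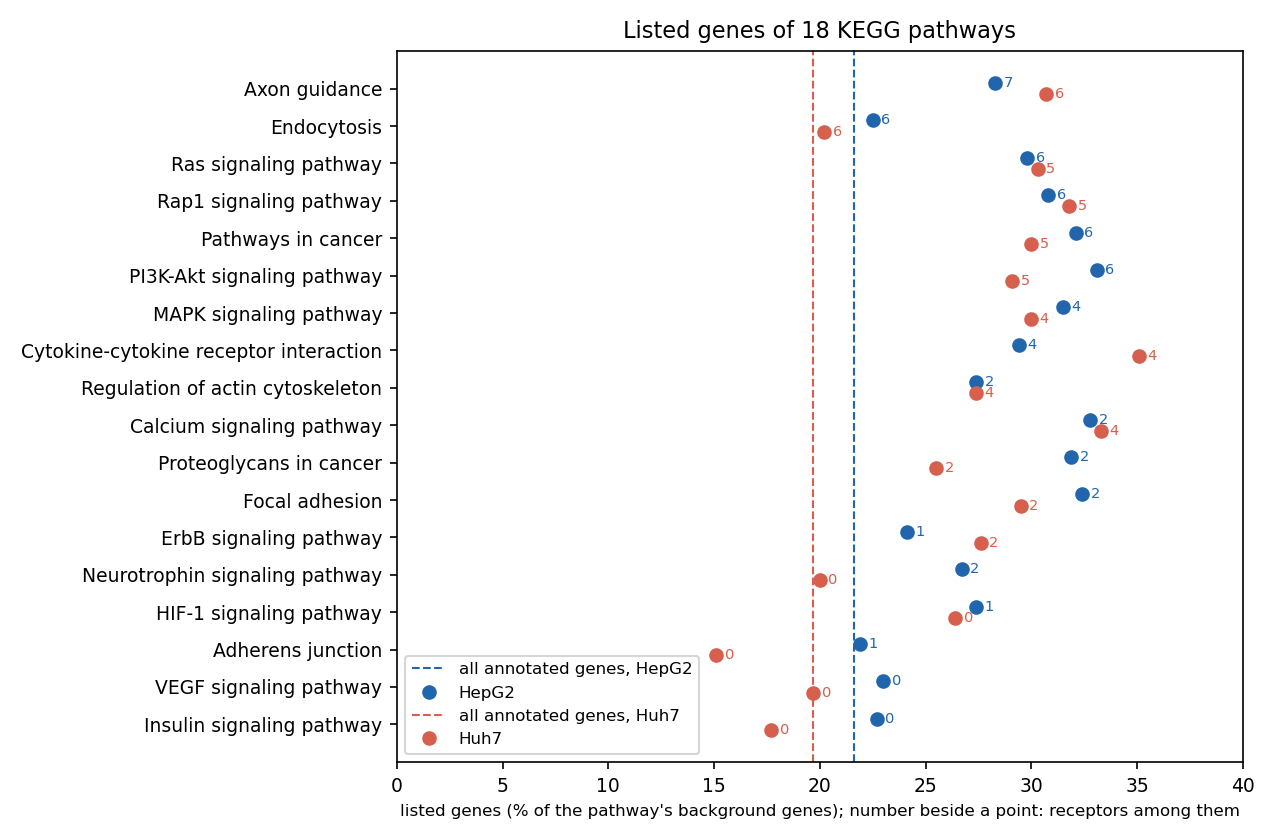
Points give the percent of background genes listed in HepG2 (blue) and Huh7 (red) cells for 18 KEGG pathways, the number beside a point counts the receptors among the listed genes, and dashed lines give the share of all annotated GO genes. Axon guidance holds the most receptors in HepG2 cells (7) and is level with Endocytosis in Huh7 cells (6 each), and Endocytosis (22.5% and 20.2%) lies near the lines.

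Receptor tyrosine kinases are annotated to many GO terms. A listed receptor stood under a median of 360.5 terms in HepG2 cells (range, 144 to 614). The median was 302 terms in Huh7 cells (range, 228 to 589), compared with 87 for all listed genes in each cell line. FGFR2 stood under the most, 614, and EPHA6 under the fewest, 144. As a result, at least 1 receptor was among the listed genes of 1915 of the 14390 GO terms of the HepG2 table (13.3%) and of 1487 of the 13760 terms of the Huh7 table (10.8%), although receptors were 20 of 4783 and 17 of 4369 listed genes. The number of terms or pathways that name a receptor is therefore no measure of how many receptors were called.

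The motif pair of the kinase centre was absent from the coding sequence of 7 members, which were ERBB3, EPHA10, EPHB6, PTK7, ROR1, ROR2 and RYK. Most of these are known as pseudokinases or weak kinases. Among them ERBB3 was the one listed, in both cell lines. Of the 46 members with both motifs, 19 were listed in HepG2 cells (41.3%) against 16 in Huh7 cells (34.8%). The difference from the 7 without them rests on few genes and was not tested.

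Receptor genes have long transcripts. The median of the longest transcript was 5282 bases over the 53 receptors and 3157 bases over 19922 protein-coding genes of GENCODE release 29. The protein-coding genes were divided by transcript length into 4 classes of nearly equal size. In the class with the longest transcripts (4943 bases or more), 26.5% of all genes were listed in HepG2 cells against 23.2% in Huh7 cells. Of the 32 receptors in this class, 13 were listed in HepG2 cells (40.6%) against 10 in Huh7 cells (31.2%). In the next class (3157 to 4942 bases), 24.1% and 22.4% of all genes were listed, against 7 (35%) and 6 (30%) of 20 receptors. In the class of 1954 to 3156 bases, which held 1 receptor, FGFR4, 25.6% and 23.6% of all genes were listed, and FGFR4 was listed in Huh7 cells. The class with the shortest transcripts held no receptor. The part of transcript length in the listing was not tested.

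Promoter sequences of RefSeq (GRCh38.p14, 250 bases before to 50 bases after the start) were matched for 48 of the 53 members, all except ERBB3, INSRR, FLT4, FGFR1 and EPHA10. The first entry found for each gene symbol was used. Any further entry of the same gene was not counted, and the start used in these cells is not known. The dinucleotide CG, counted once per site as it reads the same on both strands, was the motif searched. The median was 25.5 sites over the 48 receptors and 14 over all 35116 promoters in the table. The 6 matched receptors listed in both cell lines had a median of 28 sites (range, 0 to 51), the 13 listed in HepG2 cells alone 12 (range, 3 to 52), the 10 listed in Huh7 cells alone 23.5 (range, 8 to 51), and the 19 listed in neither 33 (range, 1 to 55). The ranges of the 4 states overlapped almost wholly. The shared receptors spanned both extremes, and their outermost promoters are printed to show this contrast, 5′ to 3′ on the plus strand with each CG in capitals. DDR2 (chr1:162630613-162630912) had 0 sites, as did 3.96% of all promoters in the table, and EPHA8 (chr1:22563239-22563538) had 51, a number reached by 1.01% of all promoters. The RefSeq starts of both genes lie upstream of the GENCODE starts given above.
DDR2: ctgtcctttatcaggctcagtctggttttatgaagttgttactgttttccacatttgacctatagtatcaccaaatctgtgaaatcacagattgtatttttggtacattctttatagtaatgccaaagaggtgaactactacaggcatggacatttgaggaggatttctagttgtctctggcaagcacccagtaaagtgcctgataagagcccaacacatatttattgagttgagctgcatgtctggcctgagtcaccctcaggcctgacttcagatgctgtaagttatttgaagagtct
EPHA8: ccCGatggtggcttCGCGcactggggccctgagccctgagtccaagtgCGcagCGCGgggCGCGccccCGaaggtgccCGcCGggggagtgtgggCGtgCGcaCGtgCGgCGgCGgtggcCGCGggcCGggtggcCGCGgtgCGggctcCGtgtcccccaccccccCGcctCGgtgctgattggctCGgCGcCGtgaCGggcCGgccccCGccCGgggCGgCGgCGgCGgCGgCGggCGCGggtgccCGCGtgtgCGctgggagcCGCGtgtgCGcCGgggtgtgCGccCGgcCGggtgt
Receptors listed in both cell lines thus included a promoter without any CG and one among the most CG-rich, and a promoter type common to them was not seen in this count.

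**Figure D5:**
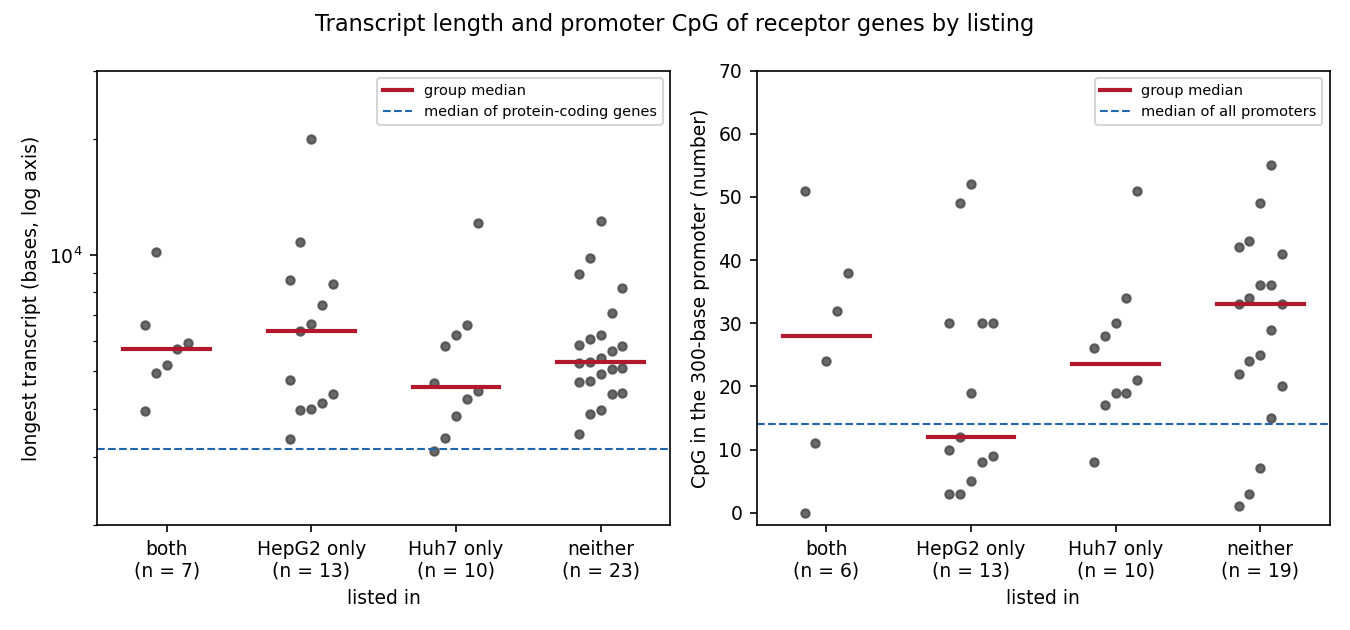
Each point is 1 receptor gene, placed by whether it was listed in both cell lines, in 1 of them or in neither, with its longest transcript in bases on a log axis on the left and the number of CG sites in its promoter of 300 bases on the right. Red lines are group medians and dashed lines the medians of protein-coding genes (3157 bases) and of all promoters (14 sites); nearly all receptors lie above the first line, and the groups overlap in both panels.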

How the data were processed

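Strand-specific libraries were made from total RNA after removal of ribosomal RNA, 1 in each of the 4 groups. The sources name HISAT2, Bowtie2 2.2.8, StringTie 1.3.1 and Cuffdiff 2.1.1 in the submitters' processing notes. The genome build and annotation are not given in the sources used here. Differential mRNAs were called at an adjusted p-value under 0.05 by the authors, with Cuffdiff in the methods and edgeR in the results of the paper. The deposited tables hold, for each GO term and KEGG pathway, the number and the identifiers of listed genes, the background genes, and enrichment p-values of the authors, which were not used.

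The list of each comparison was the union of identifiers over all GO terms. Members were matched through Ensembl identifiers, and shares were taken of 22148 background genes. No test was run, as there is 1 library per group. Coding motifs were searched in frame in the longest coding sequence of GENCODE release 29 (His-Arg-Asp followed within 60 codons by Asp-Phe-Gly). Reading of the identifiers was checked on simulated lists, a check that did not cover the matching of members. Depth is unknown from these tables, and read counts or levels were not analysed here. Python 3.11.15 and matplotlib 3.10.9 were used.

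All 53 members were named by family and listing. Of the pathway lists, genes found in both comparisons were named, and others were chosen after their listing had been seen. The members, lists and terms were chosen with earlier results of these data known. Protein sequences were planned and were replaced by coding DNA, of which 1 stretch is not reported here. The alternatives were the KEGG tables, single GO branches, protein-coding genes as background, members without the EPH family and members with both motifs. The GO receptor tyrosine kinase term and the longest transcripts were added after the data were seen. The planned pathway named Central carbon metabolism in cancer was not analysed here.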

Additional observations from a re-analysis of the deposited data

How the results depend on the processing

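Over 25 alternatives, 23 left the count within 1.5 times its value or the share within its 95% binomial interval, which covers counting error only. All of them reread the same calls of the authors, so this number does not test the calling. Single GO branches, and the GO and KEGG tables joined, gave the unchanged counts of 20 (HepG2), 17 (Huh7) and 7 (both). These alternatives had little room to differ, since joining tables cannot lower a count and each listed receptor stood under at least 144 GO terms. With the KEGG tables in place of the GO tables, 15 receptors were listed in each cell line and 5 in both. Without the EPH family, the listed shares were 35.9% in HepG2 cells against 28.2% in Huh7 cells. The values that moved were the background shares, which became 23.9% in HepG2 cells against 21.9% in Huh7 cells when protein-coding genes of GENCODE release 29 replaced the GO background, by construction, since that set is smaller. No paired analysis was possible because each group has 1 library and no result comes from a test. No replicate could be left out for the same reason. The lists carry no depth, level or direction, so a receptor that was not listed is not shown to be unchanged.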

Other observations

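The GO term ephrin receptor activity held 21 background genes. In HepG2 cells 8 of them were listed, of which 6 were Eph receptors and 1 was NTRK3, a neurotrophin receptor that the annotation places under this term. In Huh7 cells 6 were listed, and these were the 6 listed Eph receptors. A count of this term would therefore name 1 receptor of another family in HepG2 cells. PDGFRB, likewise, stood under G-protein coupled receptor activity in both cell lines.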
